A study of Mus musculus with 6 samples.

Results

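The transcription factors that establish and hold B cell identity were followed in BCR-ABL1+ mouse B cells with and without gamma-catenin, the junction protein also called plakoglobin and encoded by Jup. The set was a list of 10 genes, Ebf1, Tcf3, Pax5, Ikzf1, Ikzf3, Spib, Irf4, Bach2, Bcl6 and Prdm1, out of 19938 genes measured by a probe set with exactly 1 gene symbol. All 10 were measured, each by a single such probe set, so no choice between probe sets was needed and no member was lost to a filter. The data were 6 microarrays, each of 1 sample, with 3 knockout (KO, Jup-/-) and 3 wild-type (WT, Jup+/+) samples on the C57BL/6 background.

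Both groups came from the same procedure. Fetal liver cells of KO or WT embryos, of the CD45.2+ type, were used to reconstitute CD45.1+ mice, and after at least 8 weeks the marrow of these chimeras was infected with a retrovirus that carries BCR-ABL1 and green fluorescent protein. The infected marrow went into lethally irradiated CD45.1+ recipients, from which fluorescent B220+ BP-1+ CD45.2+ cells were sorted at day 21. All samples therefore carry BCR-ABL1, an oncogenic tyrosine kinase fusion, placed by a virus and not at its own locus, and Jup was absent from all blood cells of the KO donors rather than from B cells alone. The age of the animals, and whether 1 array holds cells of 1 recipient or of several, are unstated in the sources used here. The p-values thus measure the spread between samples labelled as biological replicates.

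B cell development is run by a hierarchy of DNA-binding proteins. The E2A proteins encoded by Tcf3 and the early B cell factor encoded by Ebf1 open the programme and switch on Pax5, which commits the cell to the lineage, while Ikaros (Ikzf1) and its relative Aiolos (Ikzf3) move large pre-B cells out of the cell cycle and into light chain rearrangement together with Irf4. Bach2 and Bcl6 are repressors of the B cell and germinal centre stages, and both hold down Prdm1, whose product Blimp-1 in turn shuts off Pax5, Bcl6 and Spib and drives plasma cell differentiation. In Philadelphia chromosome-positive leukaemia, loss of IKZF1 and of PAX5 is common, and BCL6 and BACH2 are known as regulators of cell survival at the pre-B cell checkpoint.

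Because Bach2 and Prdm1 stand at opposite ends of this circuit, and had the highest and the lowest difference among the factors, the bases before their start sites are given first. They were taken from RefSeq for the mouse assembly GRCm38.p6, whose table held promoter windows for 9 of the 10 factors (none for Ikzf3), 12 windows in all. Each sequence is the 250 bases before the start site in the direction of transcription, at chr4:32417185-32417434 on the plus strand for Bach2 and at chr10:44458749-44458998 on the minus strand for Prdm1, with matches to any of the motifs searched in capitals.
Bach2: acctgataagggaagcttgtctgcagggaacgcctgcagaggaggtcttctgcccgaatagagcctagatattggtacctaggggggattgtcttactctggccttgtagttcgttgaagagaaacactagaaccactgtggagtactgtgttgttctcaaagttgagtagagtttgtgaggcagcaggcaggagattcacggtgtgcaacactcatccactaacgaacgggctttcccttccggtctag
Prdm1: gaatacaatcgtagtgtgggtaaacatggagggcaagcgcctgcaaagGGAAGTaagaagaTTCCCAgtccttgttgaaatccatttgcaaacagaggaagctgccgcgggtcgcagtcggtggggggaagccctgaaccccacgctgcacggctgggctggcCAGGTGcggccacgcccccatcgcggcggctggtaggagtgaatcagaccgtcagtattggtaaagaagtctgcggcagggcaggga

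The motifs were TGAGTCA (the core shared by BACH2 and AP-1 sites), CAGGTG (an E-box bound by E2A), the EBF1 palindrome (TCCC and GGGA with 2 bases between), TGGGAA (the Ikaros core), the interferon regulatory factor motif (GAAA repeated after 2 bases) and GGAAGT (an ETS core, as bound by Spi-B), searched on both strands in windows of 300 bases that also hold the 50 bases after the start. The Prdm1 window held 3 matches, GGAAGT from -202, TGGGAA on the reverse strand from -189 and CAGGTG from -87 relative to the start site, which do not overlap each other. The Bach2 window held 0 matches. Among all 32851 windows of the table, 23.8% held GGAAGT, 25.6% TGGGAA and 20.2% CAGGTG, so these short motifs are frequent. TGAGTCA was in 5.2%, the interferon regulatory factor motif in 3.44% and the EBF1 palindrome in 0.904% of them. Of the other factors, Ebf1 had the interferon regulatory factor motif in 1 of its windows and TGGGAA and GGAAGT in the other, and Tcf3 had GGAAGT, while the windows of Pax5, Ikzf1, Spib, Irf4 and Bcl6 held none of the motifs. A match is a description of the letters and not a binding site.

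As for the series as a whole, array medians were between 7.53 and 7.61 on the log2 scale, and pairs of arrays correlated at r = 0.991 to 0.996 across probe sets. Jup itself gave 7.04, 7.06 and 7.27 in KO and 8.04, 7.62 and 8.51 in WT, without overlap (log2 difference -0.93, limma adjusted p = 0.171). The part of the gene that the KO allele lacks is unstated there too, so this checks the labels only in part. Xist was at 6.20 in WT replicate 2 and at 13.03 to 13.38 on the other arrays, so that array differed from the rest in the sex of its cells. KO replicate 1 stood nearer to WT than the other KO arrays in most of the factors described here, and values without either array are given where they matter. Of the genes that mark sorted pre-B cells, the signals were high for Igll1 and Vpreb1, which encode the surrogate light chain (13.93 to 14.02 and 11.00 to 11.29), for the receptor subunit gene Cd79a (13.60 to 13.76) and for Enpep, which encodes BP-1 (12.23 to 12.63). The Enpep signal was lower in KO than in WT (difference -0.23). With 3 arrays a group, precision is limited by their number.

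The mean signal of 9 of the 10 factors was higher in KO, and that of Prdm1 was lower. The median difference of the 10 was 0.27 on the log2 scale, against -0.016 over all 21789 probe sets tested, of which 44.2% had a higher KO mean. Of the 10 factors 8 were among the 2179 brightest probe sets, of which 37.6% had a higher KO mean with a median of -0.031. The differences ran from 1.02 for Bach2 over 0.63 for Ikzf3 down to 0.10 for Tcf3 and 0.05 for Ebf1. With limma and Benjamini-Hochberg adjustment over all probe sets, 0 of the 10 passed an adjusted p of 0.05, a threshold that 0.119% of all probe sets passed. At an unadjusted p under 0.05 in limma, Bach2, Ikzf3, Ikzf1 and Bcl6 were higher in KO, 4 of 10 against 4.48% of all probe sets, and 0 were lower, against 4.73%. The 3 KO arrays lay wholly above the 3 WT arrays for Bach2 and Ikzf1, 2 of 10 against 5.94% of all probe sets, and wholly below them for 0, against 8.08%. In bulk samples of this kind, a larger share of cells with a transcript and more of it in each cell cannot be told apart.

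**Figure D1:**
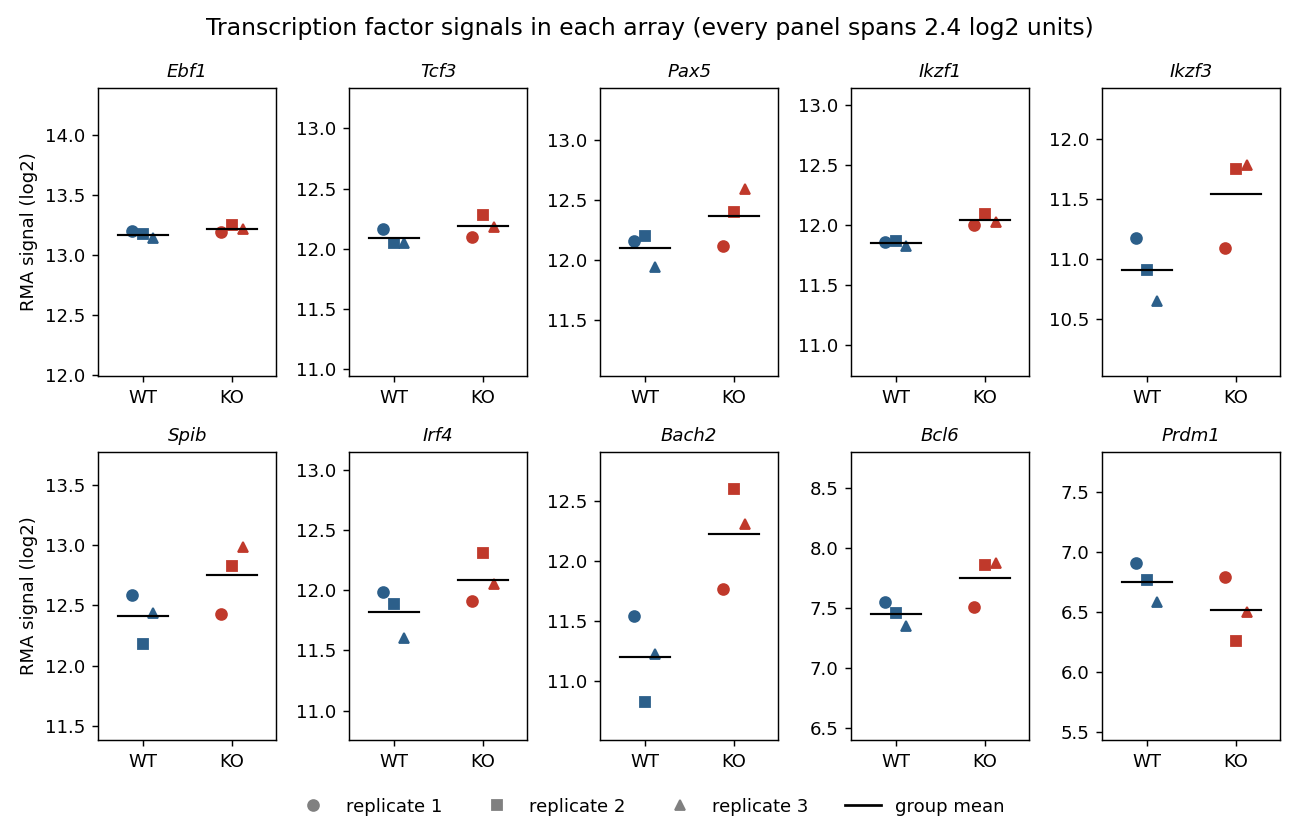
Log2 RMA signal of the 10 transcription factor genes on the 3 WT (blue) and 3 KO (red) arrays, with 1 point per array, the replicate number as its shape and a line at the group mean. Every panel spans the same range of log2 units, so that distances can be compared between panels, and the Bach2 points separate from 10.83 to 11.54 in WT and 11.77 to 12.60 in KO.

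Bach2, a repressor of the BTB and leucine zipper type that delays plasma cell differentiation, had the largest difference. Its probe set (10503695) gave 11.77, 12.60 and 12.31 in KO replicates 1, 2 and 3 and 11.54, 10.83 and 11.23 in WT. All KO values lay above all WT values, and the lowest KO and the highest WT value, both of replicate 1, were the closest pair. Group means were 12.22 ± 0.42 in KO and 11.20 ± 0.35 in WT (SD, n = 3 each). The difference was 1.02 (SE 0.23, 95% interval 0.50 to 1.55), or 2.03-fold, and missed the threshold (limma adjusted p = 0.194). Only when arrays were weighted by their quality did it pass, with a difference of 1.25 and a limma adjusted p of 0.0462, and the adjusted p ranged from 0.0462 to 0.578 over all alternatives. Without KO replicate 1 the difference was also 1.25 (limma adjusted p = 0.0708), and without WT replicate 2 it was 0.84 (limma adjusted p = 0.383).

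Bcl6, the repressor of the germinal centre that shares targets with Bach2, was measured near the middle of the range of signals. It gave 7.51, 7.86 and 7.87 in KO and 7.55, 7.46 and 7.35 in WT (probe set 10438738), so that KO replicate 1 fell among the WT arrays and the other KO arrays lay above them. The difference was 0.30 (SE 0.11, 95% interval 0.04 to 0.56), or 1.23-fold, with an adjusted p of 0.467 in limma. It lay between 0.23 and 0.42 over the 6 arrays left out in turn, highest without KO replicate 1. Its unadjusted limma p was under 0.05 in 2 of these 6 fits. RMA compresses changes of dim transcripts, which limits what these values say of the size of the change.

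Prdm1 encodes Blimp-1, the repressor that both Bach2 and Bcl6 act against, and was the factor with a lower KO mean. Its probe set (10368970) lay below the array median on all 6 arrays. It gave 6.79, 6.26 and 6.50 in KO and 6.91, 6.77 and 6.58 in WT, and the groups overlapped, with KO replicate 1 above a pair of WT arrays. The difference was -0.23 (SE 0.14, 95% interval -0.56 to 0.09, limma adjusted p = 0.695). It was -0.37 without KO replicate 1 and between -0.11 and -0.37 over the 6 arrays left out in turn, lowest in size without KO replicate 2.

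Opposed factors were also compared by their difference within each array, which shows unequal change and not which of the genes changed. The Prdm1 probe set is dim, and whether it was above background was not tested, and these differences contain those of Bach2, Bcl6 and Pax5 given for the single genes. Bach2 minus Prdm1 was 4.97, 6.33 and 5.81 in KO and 4.63, 4.06 and 4.64 in WT. It was thus higher on every KO array than on any WT array, by 1.26 on average, with 5.71 ± 0.69 (SD, n = 3) against 4.45 ± 0.33 (SD, n = 3). Bcl6 minus Prdm1 gave 1.23 ± 0.46 in KO and 0.70 ± 0.06 in WT (SD, n = 3 each), and Pax5 minus Prdm1 gave 5.85 ± 0.46 and 5.35 ± 0.09 (SD, n = 3 each), both with KO replicate 1 inside the WT range. The exact two-sided permutation test, whose smallest p with 3 against 3 arrays is 0.1, gave p = 0.1, 0.2 and 0.3 for these differences. Adjusted over the 4 pairs compared, the exact p was 0.267, 0.267 and 0.3.

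The Ikaros family pair had differences of unequal size. Ikzf3, which encodes Aiolos, gave 11.09, 11.75 and 11.78 in KO and 11.17, 10.91 and 10.65 in WT (probe set 10390640). KO replicates 2 and 3 lay above all WT arrays, and KO replicate 1 lay below WT replicate 1. The difference was 0.63 (SE 0.20, 95% interval 0.18 to 1.08), or 1.55-fold, with an adjusted p of 0.372 in limma, and it was 0.86 without KO replicate 1 (limma adjusted p = 0.0939). It lay between 0.50 and 0.86 over the arrays left out in turn.

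Ikzf1, which encodes Ikaros, had a small difference with little spread. It gave 12.00, 12.09 and 12.03 in KO and 11.86, 11.87 and 11.83 in WT (probe set 10374333), so that all KO arrays lay above all WT arrays. The difference was 0.19 (SE 0.07, 95% interval 0.02 to 0.35), or 1.14-fold, with an adjusted p of 0.464 in limma, and every array left out in turn kept it between 0.16 and 0.20. Ikzf3 minus Ikzf1 within each array was -0.91, -0.34 and -0.25 in KO and -0.69, -0.96 and -1.18 in WT, and overlapped (difference 0.45, exact permutation p = 0.2, adjusted p = 0.267). Ikzf3 lies on chromosome 11, as Jup does, with 92 protein-coding genes between them in GRCm38.p6. Ikzf1 and Ebf1 lie on chromosome 11 too. Of the 73 annotated genes between Ikzf3 and Jup that had a tested probe set, 5 were higher at an unadjusted p under 0.05 and 0 were lower in limma, with a median difference of -0.02. Over all probe sets 4.48% were higher and 4.73% lower at that p, so 5 of 73 is near the share. Whether the region around the targeted allele plays a part in the Ikzf3 value was not tested.

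**Figure D2:**
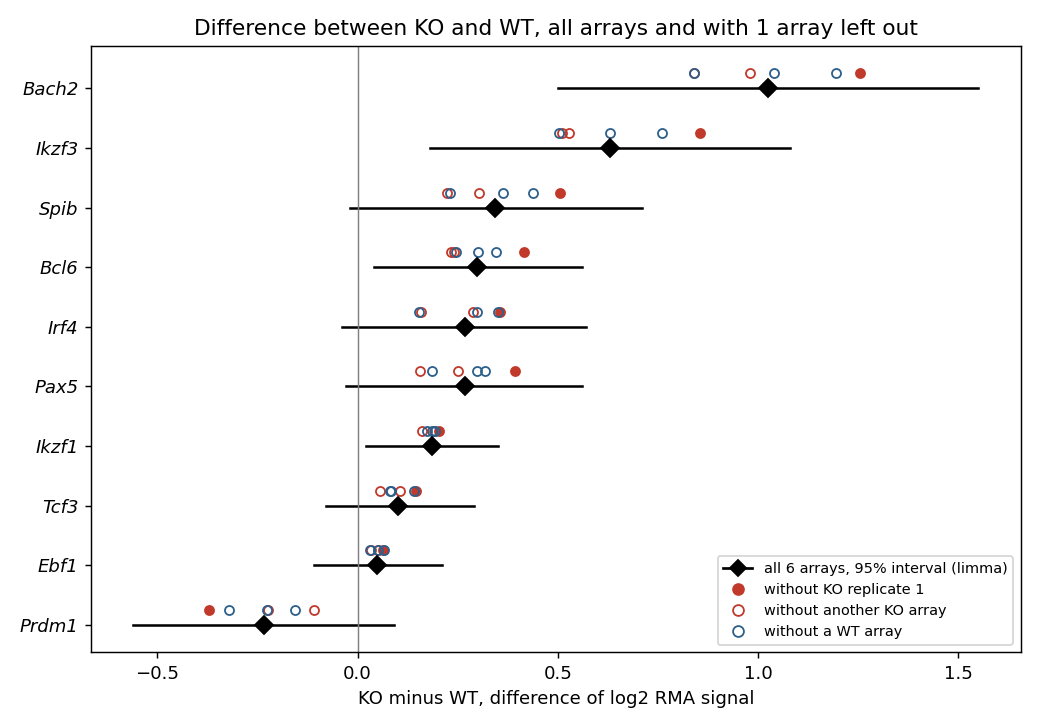
Difference of mean log2 RMA signal, KO minus WT, for each factor, with all 6 arrays (diamonds, with limma's 95% interval) and with 1 array left out (circles, filled red without KO replicate 1, open red without another KO array, open blue without a WT array). Bach2 stays between 0.84 and 1.25 and Ebf1 between 0.03 and 0.06 over the arrays left out, and the filled circle lies farthest from 0 for every factor except Ebf1, where it is beside the farthest.

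Pax5, Spib and Irf4 formed a middle group with intervals that reached 0. Pax5, the commitment factor, gave 12.12, 12.40 and 12.59 in KO and 12.16, 12.20 and 11.94 in WT (difference 0.27, SE 0.13, 95% interval -0.03 to 0.56, limma adjusted p = 0.601). KO replicate 1 lay inside the WT range and the other KO arrays above it. Spib, an ETS factor related to PU.1, gave 12.43, 12.83 and 12.99 in KO and 12.59, 12.18 and 12.44 in WT (difference 0.34, SE 0.16, 95% interval -0.02 to 0.71, limma adjusted p = 0.577). Irf4, an interferon regulatory factor of pre-B and plasma cells, gave 11.91, 12.31 and 12.05 in KO and 11.99, 11.89 and 11.60 in WT (difference 0.27, SE 0.13, 95% interval -0.04 to 0.57, limma adjusted p = 0.609). In each of the 3 genes the lowest KO array was replicate 1 and overlapped with WT. Without WT replicate 2, the Spib difference was 0.23.

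The factors at the top of the hierarchy differed least. Tcf3, which encodes the E2A proteins E12 and E47, gave 12.10, 12.28 and 12.18 in KO and 12.16, 12.05 and 12.05 in WT. Its difference was 0.10 (SE 0.08), with a 95% interval of -0.08 to 0.29 and an adjusted p of 0.788 in limma. Ebf1 gave 13.19, 13.25 and 13.22 in KO and 13.20, 13.18 and 13.14 in WT, and all 6 values lay within a narrow band. Its difference was 0.05 (SE 0.07), with a 95% interval of -0.11 to 0.21 and an adjusted p of 0.908 in limma. The interval excludes a difference as large as that of Bach2 on this scale, but the Ebf1 probe set was brighter than 99.5% of all probe sets, and how far array signals at that level are still proportional to RNA was not tested.

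KO replicate 1 set much of the spread. Of the 9 factors with a higher KO mean, KO replicate 1 was above the highest WT array in 2 (Bach2 and Ikzf1), whereas KO replicates 2 and 3 were so in 9 each. Averaged over these 9 factors, the deviation from the WT mean was 0.12, 0.48 and 0.45 in KO replicates 1, 2 and 3 and 0.14, -0.05 and -0.09 in WT replicates 1, 2 and 3, so that KO replicate 1 and WT replicate 1 were at about the same place. The 9 were picked by their higher KO mean, which fixes a positive average over the KO arrays. These values thus compare replicates and say nothing on KO against WT. Without KO replicate 1, 7 factors were higher and 1 (Prdm1) lower at an unadjusted p under 0.05 in limma, and 0 passed after adjustment. With WT replicate 1 left out, 6 were higher at that p, and with any of the remaining 4 arrays left out, 2 were. All 10 kept their sign with every array left out.

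**Figure D3:**
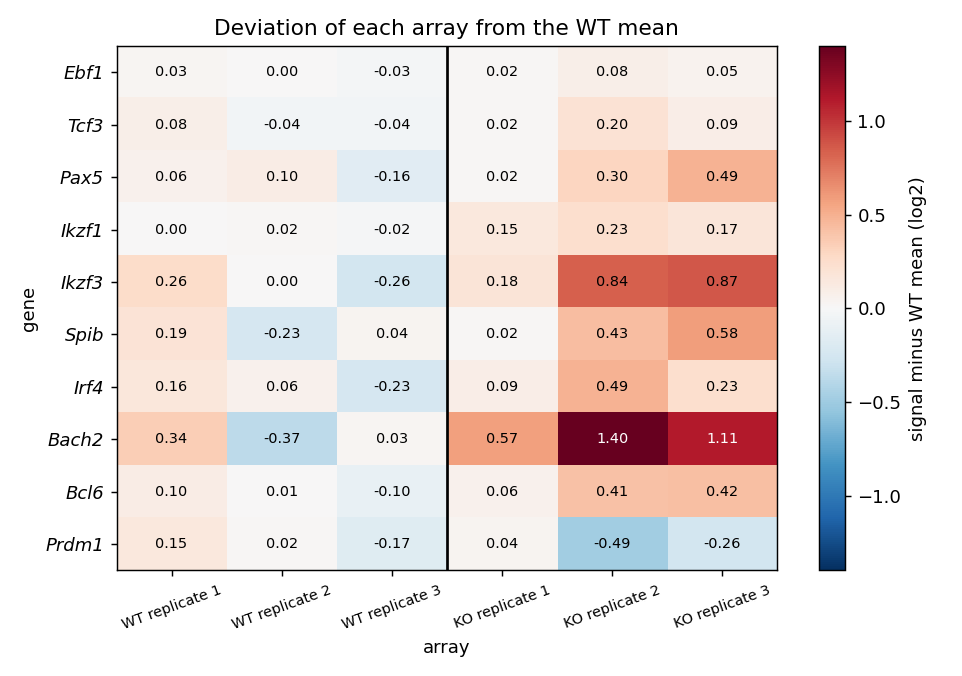
Deviation of each array (columns, 3 WT left and 3 KO right of the line) from the gene's WT mean, in log2 units, for each factor (rows), with the value in each cell and red for higher, blue for lower. KO replicates 2 and 3 are red in 9 rows and blue for Prdm1, while KO replicate 1 lies above all WT arrays for Bach2 (0.57) and Ikzf1 (0.15) and inside the WT range for the others.

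The signal of Bach2 also varied from array to array along with that of the other factors. Over the 6 arrays, Pearson's r with Bach2 was 0.91 for Tcf3, 0.90 for Bcl6, Ikzf1, Ikzf3 and Spib, 0.85 for Ebf1, 0.78 for Irf4, 0.71 for Pax5 and -0.70 for Prdm1. With the group means removed, it was 0.92 for Tcf3, 0.88 for Spib, 0.75 for Bcl6 and Ikzf3, 0.67 for Ebf1, 0.59 for Irf4, 0.54 for Ikzf1, 0.41 for Pax5 and -0.53 for Prdm1. These are descriptions of the same 6 arrays, which share their normalization. The genes most like Bach2 among the 19938 genes were Kdm3b (r = 0.998), Relch (0.997), Mtss1 (0.996), Kdm5b (0.995) and Gabpb1 (0.994), with Spearman's rho of 1 for each, and 164 genes had an r over 0.95. Kdm3b and Kdm5b encode histone demethylases and Gabpb1 a subunit of an ETS-type transcription factor. Of these 5, Kdm5b had the largest difference between KO and WT, at 0.97, and the others had 0.16 to 0.37. The sign of these differences was fixed by the choice, since a rho of 1 with Bach2 puts all KO arrays above all WT arrays. The 5 are the extremes of 19938 genes over 6 arrays, and how many such r arise by chance was not tested.

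Further transcription factors of the lineage, 29 measured of a list of 30, leaned the same way but less. Of the 29, 22 had a higher KO mean, with a median of 0.08, and 0 passed after adjustment in limma. The unadjusted p was under 0.05 for 7 with a higher and 1 with a lower KO mean. Over all probe sets, 4.48% were higher and 4.73% lower at that limma p, and 44.2% had a higher KO mean. The 1 lower of 29 is near its share, and the same shares serve for the counts of the target and marker lists that follow. Klf2, a factor of lymphocyte quiescence, gave 9.50, 10.04 and 10.09 in KO and 9.40, 8.76 and 9.03 in WT (difference 0.81, SE 0.19). The others were Zeb2 (0.42), Pou2f2, which encodes the octamer factor Oct-2 (0.41), Arid5b (0.37), Mef2c (0.33), Sox4 (0.28) and Foxp1 (0.20). Xbp1, the plasma cell factor of the unfolded protein response that acts downstream of Blimp-1, was lower on every KO array, at 11.50, 11.67 and 11.53 against 11.84, 11.97 and 11.74 (difference -0.28, SE 0.09). Foxo1 and Lef1 were near 0, at 0.02 and -0.01. The count of 7 higher became 11 without WT replicate 1 and 4 without KO replicate 2 or WT replicate 3.

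Among genes reported to be activated by PAX5 or EBF1, several surface receptors of later B cells had higher KO means, and genes of the pre-B cell receptor had differences near 0. Of 18 measured, 14 had a higher KO mean, with a median of 0.06, and 0 passed after adjustment in limma, while 6 were higher and 0 lower at an unadjusted p under 0.05. Cd72, an inhibitory receptor, gave 10.49, 11.58 and 11.31 in KO and 9.81, 9.76 and 9.42 in WT (difference 1.46, SE 0.25). Cd22, another inhibitory receptor, gave 9.20, 9.94 and 9.67 against 8.73, 8.01 and 8.24 (1.28, SE 0.22). The kinase gene Blk was at 0.89, Cd55 at 0.53, the lectin gene Siglecg at 0.48 and Fcer2a, which encodes CD23, at 0.41. The Fcer2a probe set is dim, below the array median on all 6 arrays. For the pre-B cell receptor and its adaptor, the differences were 0.02 for Cd79a, 0.06 for Cd79b, -0.01 for Igll1, -0.03 for Vpreb1 and -0.03 for Blnk. The probe sets of Cd79a, Cd79b and Igll1 were brighter still than that of Ebf1, and the same limit applies.

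Genes reported to be activated by Ikaros or Aiolos had the highest median of the target lists, 0.35 over 9 measured. In limma 5 were higher at an unadjusted p under 0.05 and 0 after adjustment. They were the recombinase genes Rag1 (0.50) and Rag2 (0.42), Il2ra, which encodes CD25 of small pre-B cells (0.43), the cell cycle inhibitor gene Cdkn1b (0.36) and the kinase gene Syk (0.35). Rag2 gave 9.96, 10.13 and 10.23 in KO and 9.65, 9.85 and 9.57 in WT, without overlap. The list also holds Irf4, itself 1 of the 10 factors. Rag1, Rag2 and Il2ra recur in the pre-B marker list and Cdkn1b among genes repressed by BCL6, so these lists are not independent. Without KO replicate 2 or WT replicate 3, 3 were higher at that p. The list of genes they repress had a median of 0.01 over 11, and 1 was lower at an unadjusted p under 0.05. That was Myc (11.91, 11.40 and 11.64 in KO, 12.33, 12.01 and 12.05 in WT, difference -0.48, SE 0.14), followed by Kit (0.51, SE 0.24) and Cdk6 (-0.14, SE 0.11). The Kit probe set is dim, below the array median on 5 of the 6 arrays.

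**Figure D4:**
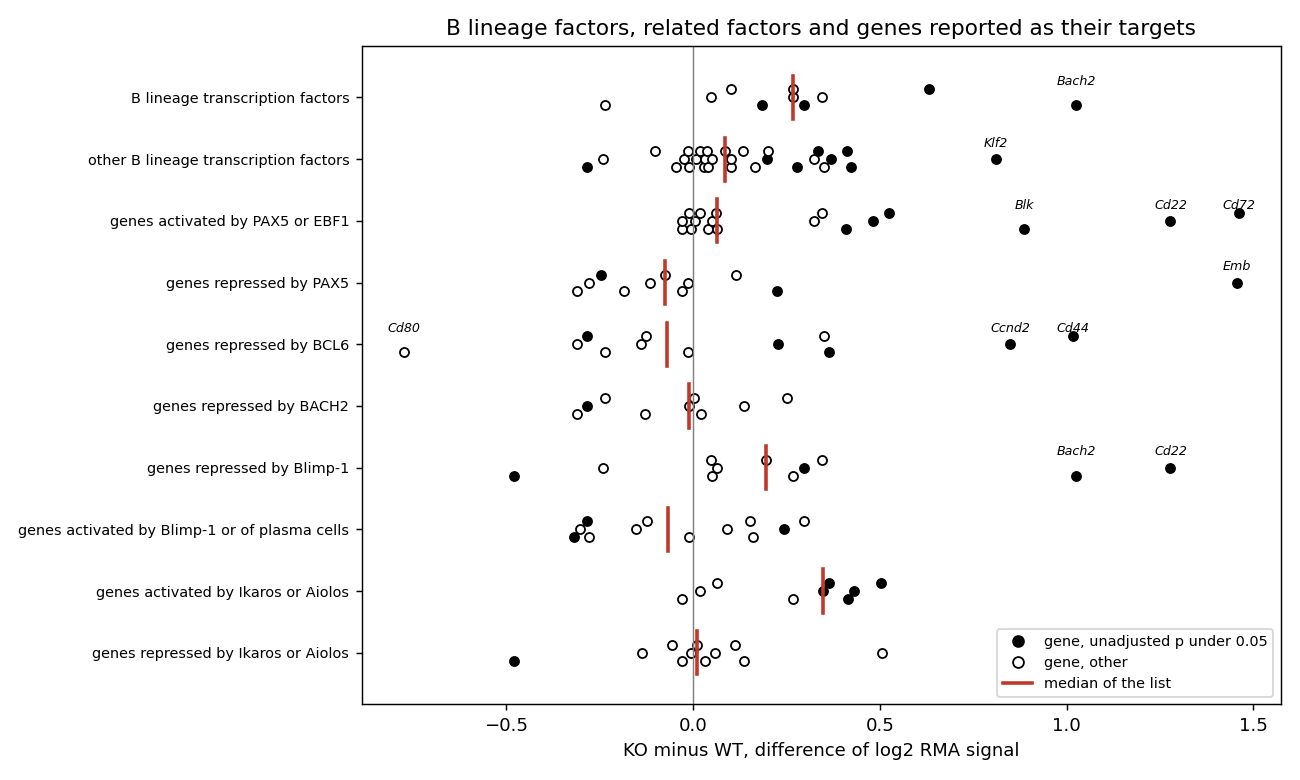
KO minus WT difference of log2 RMA signal for every measured gene of the factor list, the list of related factors and the lists of reported targets (rows), with filled points for an unadjusted limma p under 0.05 and a red line at each list's median. The medians lie at 0.35 for genes activated by Ikaros or Aiolos, 0.27 for the 10 factors and 0.20 for genes repressed by Blimp-1, and between -0.08 and 0.08 for the others.

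The lists of repressed targets gave mixed values. Genes repressed by Blimp-1 had a median of 0.20 over 11 measured, 9 with a higher KO mean, but 5 of the 11 are the factors Bach2, Bcl6, Pax5, Spib and Ebf1 themselves. At an unadjusted p under 0.05, Cd22, Bach2 and Bcl6 were higher and Myc lower in limma, and the number higher was 5 without KO replicate 1, 4 without WT replicate 1 and 2 with any other array left out. Genes of plasma cells or activated by Blimp-1 had a median of -0.07 over 12, with Xbp1 and Mzb1 (-0.32) lower and Slamf7 (0.24) higher at that p, and the number lower was 4 without KO replicate 2, 3 without WT replicate 3, 1 without KO replicate 3 or WT replicate 1 and 0 without WT replicate 2, the number higher ranging from 0 to 3. Genes repressed by BACH2 had a median of -0.01 over 9, led by Cdkn2a, a tumour suppressor (-0.28, SE 0.11), Prdm1 and Slc7a11 (0.25, SE 0.17), and the heme oxygenase gene Hmox1 was at 0.00. The Slc7a11 and Hmox1 probe sets are dim, below the array median on all 6 arrays. Cdkn2a was lower at an unadjusted p under 0.05 and was the 1 gene of that list to be so, against 3 when KO replicate 1 was left out, 2 when WT replicate 3 was and 0 when any other array was.

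Genes repressed by BCL6 had a median of -0.07 over 12, and their single values pointed both ways. Cd44 (1.02, SE 0.26), Ccnd2, which encodes cyclin D2 (0.85, SE 0.21), Cdkn1b and Gadd45a (0.23) were higher and Cdkn2a was lower at an unadjusted p under 0.05 in limma. Likewise 4 were lower when KO replicate 1 was left out, 3 when WT replicate 3 was and 0 when any other array was. Genes repressed by PAX5 had a median of -0.08 over 11. Emb, which encodes embigin, was far from the rest at 9.42, 10.02 and 9.99 in KO and 8.53, 7.95 and 8.58 in WT (difference 1.46, SE 0.21, limma adjusted p = 0.0622). Ccr2 (0.22) was higher and Flt3, a receptor of early progenitors (-0.25), lower at an unadjusted p under 0.05, the number higher being 1 without KO replicate 2 and the number lower 2 without WT replicate 3. The probe sets of Ccr2 and Flt3 are dim, below the array median on all 6 arrays. In these 4 lists of repressed targets and in the plasma cell list, 0 genes passed after adjustment.

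Markers of other cell types moved beside these values. Of 16 neutrophil markers 16 had a higher KO mean, and Mpo (9.17, 9.04 and 9.38 in KO, 7.44, 7.58 and 7.76 in WT, limma adjusted p = 0.00512), Ctsg (limma adjusted p = 0.0128) and Elane (limma adjusted p = 0.0307) rose. The summed linear signal of the list was 11869 to 13639 in KO and 6020 to 10089 in WT. Most of this sum came from its brightest genes, Ngp (limma adjusted p = 0.285) and Lcn2 (limma adjusted p = 0.436), and the Lcn2 groups overlapped. The Mpo values of all 3 KO arrays lay above those of all WT arrays. Of 19 mature B cell markers, 17 had a higher KO mean, with a summed signal of 29048 to 34532 in KO and 25782 to 30055 in WT, which overlap, led by Cd22, Cd180 (0.83, SE 0.16) and Ms4a1, which encodes CD20 (1.29, SE 0.28). At an unadjusted p under 0.05 in limma 7 of these markers were higher and 1, Ltb (-0.56, SE 0.20), was lower. Their part in the differences of the factors was not tested, for Bach2 (1.02) and Ikzf3 (0.63) as for the others. Spib, Pax5 and Irf4 are also expressed by later B cells, but the limit is not confined to these genes. RMA signals have no 0, so absence of a cell type cannot be read from them.

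The values of the other marker lists, as summed linear signals, follow. Each sum is weighted towards the brightest genes of its list and is not a measure of cell number. In the erythroid list the brightest were Car2 (12.17 to 12.96 over the 6 arrays) and Tfrc (11.14 to 11.45). In the plasmacytoid and monocyte lists they were Tcf4 (10.92 to 11.08) and Lyz2 (8.93 to 9.91). Over all probe sets 44.2% had a higher KO mean, and 4 of 8 is near that share. Pre-B and sort gate markers had a median of 0.11 over 13 (Rag2, Rag1 and Cd93, at 0.22, had the smallest p), with a summed signal of 69000 to 73358 in KO and 66512 to 69520 in WT. Of the 13, 9 had a higher and 4 a lower KO mean. Enpep, which encodes the BP-1 of the sort gate, was lower on every KO array than on any WT array (-0.23, SE 0.09). Plasma cell markers had 7 of 9 lower (13940 to 16009 in KO, 15234 to 17331 in WT). Monocyte markers had 4 of 8 higher (1671 to 1754 and 1327 to 1624), with Lyz2 at 0.64, Ccr2 at 0.22 and Cx3cr1 at -0.16. T and NK markers had 4 of 12 higher (1203 to 1314 and 1138 to 1282), with Nkg7 at 0.49, Cd8a at -0.22 and Gzma at -0.08. Erythroid markers had 4 of 8 higher (8053 to 10007 and 9627 to 11096), with Car1 at 0.74 (limma adjusted p = 0.0307), Car2 at -0.38 and Slc4a1 at 0.15. Plasmacytoid dendritic cell markers had 2 of 7 higher (2878 to 3007 and 2801 to 3283), with Irf7 at -0.53, Bst2 at -0.20 and Cd209d at -0.09. Car1, Ccr2, Cx3cr1, Cd8a, Gzma and Cd209d had probe sets below the array median on all 6 arrays, and Nkg7 on 5 of them.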

How the data were processed

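Total RNA (100 ng per sample) of 6 sorted samples was amplified and hybridised to 1-colour Affymetrix arrays, per the labels' protocols. The authors deposited log2 signals. The submitters' processing notes name RMA and Affymetrix Expression Console 1.1, without options or annotation. RMA equalises the arrays, removes any shift common to all genes and compresses changes of dim transcripts. Read depth does not apply to arrays, whose number limits the precision.

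Rows with exactly 1 symbol in the platform's probe table were tested (21789 of 35556), and each gene was read from its probe set with the highest mean. The group difference was fitted by limma 3.58.1 under R 4.3.3 (lmFit, eBayes, no covariate, no dim filter, prior degrees of freedom 4.33) and Benjamini-Hochberg adjustment over all tested probe sets. Standard errors and 95% intervals are limma's moderated ones, and the intervals are not adjusted. The fit was tested on simulated data. Within-array differences of 4 pairs were compared with exact permutation tests. The 10 factors, the lists and the markers were chosen with earlier results of these data known, from general knowledge of the genes, so their counts are descriptions beside those over all probe sets. Named are the factors, Jup, in each target list the genes at an unadjusted p under 0.05 (or the 3 smallest p), in each marker list the 3 smallest p, and the 5 genes most like Bach2. Foxo1, Lef1, Hmox1, the pre-B cell receptor genes, Igll1, Vpreb1, Enpep, Ltb and Xist were named after their values were seen. So were Cr2, Ngp, Lcn2, Cd37, Cd74, Tfrc and Tcf4. RefSeq of GRCm38.p6 served for names (10 of 10 factors matched), neighbours and promoters. Alternatives were a dim filter, all rows, 1 probe set or the mean of probe sets per gene, a trended robust prior, array weights, quantile normalization, median centring, a block for replicate number, leaving out single arrays, an adjusted p of 0.1 and, chosen after seeing the data, removal of the trend with brightness.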

Additional observations from a re-analysis of the deposited data

How the results depend on the processing

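All 10 factors kept the sign of their difference under the 17 alternatives run (16 for Prdm1, which the filter on dim probe sets removed), and 0 passed an adjusted p of 0.05 in limma in any of them except Bach2 with array weights, so that 1 factor then passed. The weights were lowest for WT replicate 1 (0.34) and highest for WT replicate 2 (2.12), and 150 probe sets passed with them against 26 without; the cause was not tested. Over all 35556 rows, 69 passed, with a trended robust prior 40, with quantile normalization 17 and with an adjusted p of 0.1, 58. Leaving out each array in turn gave 5 to 82 probe sets, 0 factors past the threshold, 2 to 9 factors wholly higher and 0 to 1 wholly lower in KO, and 2 to 7 higher and 0 to 1 lower at an unadjusted p under 0.05; fewer arrays also make it easier for groups not to overlap. Without WT replicate 1, 7 factors were wholly higher. With the replicate number as a block, 19 probe sets and 0 factors passed, 4 factors were higher at an unadjusted p under 0.05, and the limma adjusted p of Bach2 was 0.279. The deviations of same-numbered KO and WT arrays correlated at 0.10, 0.00 and 0.27. KO replicates 1 and 3 correlated best with their own number and KO replicate 2 with WT replicate 1 (0.13), so the numbers were not taken as a pairing. The 4 within-array differences kept their sign throughout (0.321 to 1.626). Of 289 list medians recomputed, 15 moved by more than the spread between arrays, 4 up and 11 down, and of 578 list counts 95 changed by over 1.5 times, 35 up and 60 down. Limits are the 3 arrays per group, the compression of dim and possibly of very bright signals, and the uneven cell sex of WT replicate 2.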
